A study of Homo sapiens with 6 samples.

Results

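The intermediate filament and lamin genes VIM, DES, NES, GFAP, LMNA, LMNB1, LMNB2, KRT8, KRT18 and KRT19 were examined in LX2 cells treated with Syy (3 arrays) and in control LX2 cells (3 arrays). LX2 is an established line derived from human hepatic stellate cells, the perisinusoidal liver cells that turn into matrix-producing myofibroblasts during fibrosis. Syy is known here only by that code name. The submitters describe it as a small compound that keeps stellate cells from secreting; the sources used here do not state its dose, its duration or the vehicle of the controls. All arrays come from this line alone, and the labels do not say whether the replicates were separate cultures; p-values here therefore reflect how far these samples vary, possibly for technical reasons. The 10 genes were taken from a list of names and matched to probes that the platform annotation assigns to a single gene symbol. Of them, 9 had such a probe, among 18365 genes on the array, and 4 of the 9 had 2 probes. KRT18 had none: its probe is also assigned to the pseudogene KRT18P55.

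Intermediate filaments are rope-like polymers of coiled-coil proteins that give cells mechanical strength. Cytoplasmic types differ by lineage, with vimentin in mesenchymal cells, desmin in muscle, glial fibrillary acidic protein in astrocytes and keratins, as obligate heteropolymers of an acidic and a basic chain, in epithelia. Lamins form the meshwork under the inner nuclear membrane: LMNA encodes lamins A and C by alternative splicing, and LMNB1 and LMNB2 encode the B-type lamins, which stay farnesylated and membrane bound. In liver, desmin and glial fibrillary acidic protein are used as stellate cell markers, mostly in rodents, nestin is associated with their activation, KRT8 and KRT18 are the keratins of hepatocytes, and KRT19 marks bile duct cells.

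VIM, LMNA and LMNB2 were called higher with Syy, by 1.44-fold, 1.32-fold and 1.34-fold on the brightest probe of each. Under 15 alternative settings VIM kept its call in 14, LMNB2 in 13 and LMNA in 5. The dimmer LMNB2 probe gave a normalized log2 difference of -0.04. LMNB1 had the largest difference, 2.64-fold, on a brighter probe that did not pass and a dimmer probe that did. DES, GFAP and NES lay at the dim end of the array, and KRT8 and KRT19 did not pass. At an adjusted p under 0.05, 3 of the 9 measured genes passed as higher and 0 as lower (limma, Benjamini-Hochberg over all genes); at an unadjusted p under 0.05 these counts were 5 and 0. Of all 18365 genes, 11.0% were called higher and 11.5% lower. At the unadjusted threshold, 3153 of all 18365 were higher and 3306 lower. Among genes whose probe lay above the median of all probes, 16.9% were called higher, and 3 of the 6 members in that range were. The median log2 fold change of the 9 genes was 0.40, against 0 over all genes tested. In 5 of the 9, VIM, GFAP, LMNA, LMNB1 and LMNB2, every Syy value lay above every control value, which held for 18.9% of all genes.

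**Figure D1:**
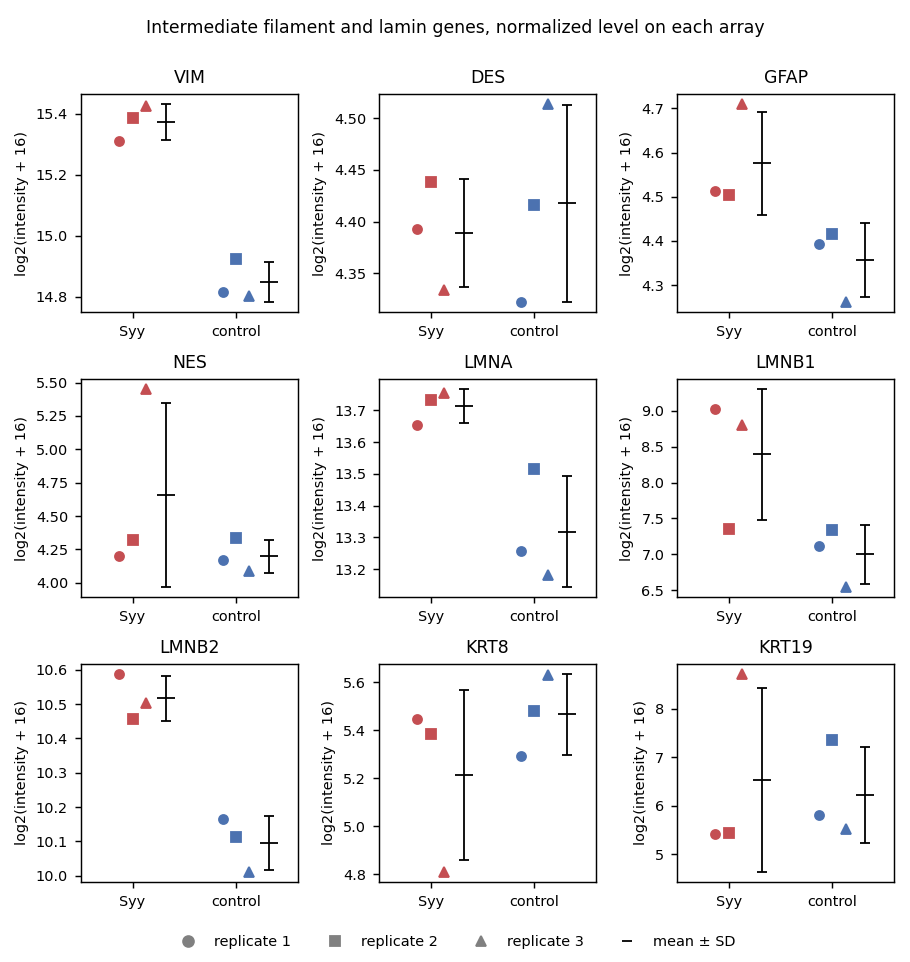
Normalized level, log2(intensity + 16), of each gene's representing probe on the 3 Syy and 3 control arrays, with the mean and SD of each group. The y axes differ between panels. VIM, GFAP, LMNA, LMNB1 and LMNB2 have all Syy points above all control points. NES has a single high point in Syy replicate 3, and KRT19 has high points in Syy replicate 3 and control replicate 2.

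Since VIM and LMNB2 were called and LMNB1 had the largest difference, the 250 bases before their annotated RefSeq starts (GRCh38.p14) are shown. Matches to 5 motifs on either strand are in capitals. The letters searched were TATAAA for the TATA box, CCAAT for the CCAAT box, GGGCGG for the GC box, TGANTCA for the AP-1 site and TGACNNNGC for the antioxidant response element. LMNB1 has 2 annotated starts in the table, and both are given.
VIM, chr10:17227991-17228240, plus strand: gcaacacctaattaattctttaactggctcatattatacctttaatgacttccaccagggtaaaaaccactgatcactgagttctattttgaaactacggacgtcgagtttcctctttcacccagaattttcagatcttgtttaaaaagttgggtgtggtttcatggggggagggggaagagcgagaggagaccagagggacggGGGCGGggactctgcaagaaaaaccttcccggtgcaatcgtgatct
LMNB2, chr19:2456960-2457209, minus strand: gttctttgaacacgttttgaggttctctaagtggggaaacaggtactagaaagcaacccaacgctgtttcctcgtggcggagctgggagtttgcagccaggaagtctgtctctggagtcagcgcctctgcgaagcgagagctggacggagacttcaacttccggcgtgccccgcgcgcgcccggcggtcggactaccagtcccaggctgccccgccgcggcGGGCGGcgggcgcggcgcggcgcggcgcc
LMNB1, chr5:126776373-126776622, plus strand: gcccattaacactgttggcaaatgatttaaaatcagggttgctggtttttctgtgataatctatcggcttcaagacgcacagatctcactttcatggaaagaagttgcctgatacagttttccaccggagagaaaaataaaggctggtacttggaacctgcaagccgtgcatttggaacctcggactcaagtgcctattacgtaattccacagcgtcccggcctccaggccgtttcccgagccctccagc
LMNB1, chr5:126776886-126777135, plus strand: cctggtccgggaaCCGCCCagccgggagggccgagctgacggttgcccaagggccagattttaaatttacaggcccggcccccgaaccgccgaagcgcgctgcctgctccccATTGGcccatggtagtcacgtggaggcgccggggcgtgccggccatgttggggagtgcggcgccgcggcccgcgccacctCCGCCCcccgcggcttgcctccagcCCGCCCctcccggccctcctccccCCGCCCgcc

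The VIM and LMNB2 windows each held 1 GC box. The second LMNB1 window held 4 GC boxes and 1 CCAAT box, and the first held no match. Each of the 3 LMNA windows in the table, not printed, held 1 or 2 GC boxes, and 1 of them also held 1 CCAAT box. The KRT8 window held none of the motifs. No TATA box, AP-1 site or antioxidant response element was found in any of these windows. Over all 35116 windows of this length, 42.6% held a GC box, 32% a CCAAT box, 10.7% a TATA box, 6.57% an AP-1 site and 10.9% an antioxidant response element. These matches describe the letters of the windows and were not related to the measured changes.

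Among the cytoplasmic filaments of mesenchymal cells, VIM, which encodes vimentin, had deposited intensities of 38945, 41218 and 40838 on the Syy arrays, against 30685, 32662 and 28786 on the control arrays. All Syy values lay above all control values. The probe was among the brightest of each array, at the 99.6th to 99.9th percentile of all probes, and below the ceiling of every array. After quantile normalization the level was 15.37 ± 0.06 with Syy and 14.85 ± 0.07 in controls (SD, n = 3 each, log2 scale). The log2 fold change was 0.53 ± 0.06 (SE; adjusted p = 0.00429). Its size depended on the scaling. The unnormalized deposited intensities gave 0.39 (adjusted p = 0.0138). Median centring gave 0.27 and ended the call (adjusted p = 0.0765). In the deposited values the median shift of probes in the same intensity range, above 12 on the log2 scale, was -0.05. The call held when any 1 array was left out, with adjusted p from 0.0121 to 0.0233.

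DES, which encodes desmin, had intensities of 5.92, 6.31 and 3.85 with Syy, against 4.34, 5.07 and 5.52 in controls. The groups overlapped, and the median intensity of the arrays was 18.4 to 27.3, so the DES probe lay below the median in both groups. Its log2 difference was -0.03 (95% interval -0.19 to 0.14, adjusted p = 0.80).

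GFAP, the filament gene of astrocytes, read 7.89, 7.36 and 9.62 with Syy, against 5.42, 5.07 and 2.76 in controls on its brighter probe. The Syy values were higher without overlap, but by a few units at the dim end of the array, and the log2 difference of 0.22 did not pass (adjusted p = 0.11). The dimmer GFAP probe read 0.99 to 1.92 with Syy, against 0.00 to 1.08 in controls, and its groups overlapped. The 5 other measured markers of glial and neural cells did not move together. S100B and ELAVL3 were dim, at 4.93 to 7.69 and 0.96 to 1.97 with Syy, against 4.06 to 5.42 and 1.01 to 1.84 in controls. SOX10, a transcription factor of the neural crest and of glia, rose (219 to 246 with Syy, against 105 to 117 in controls, adjusted p = 0.00318). MBP, a myelin protein, fell (99.7 to 138 with Syy, against 139.8 to 189 in controls, adjusted p = 0.0109). TUBB3, a neuronal tubulin, read 1042 to 1152 with Syy, against 795 to 1004 in controls, and did not pass.

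NES, which encodes nestin, a filament protein of neural progenitors and of activated stellate cells, read 2.96, 4.21 and 27.9 with Syy, against 2.17, 4.06 and 0.92 in controls. Only Syy replicate 3 stood above the median intensity of its array. The log2 difference of 0.46 did not pass (adjusted p = 0.41) and was 0.06 without that array (adjusted p = 0.69).

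Among the lamins, LMNA had intensities of 13152, 13675 and 13134 with Syy, against 9787, 11545 and 9094 in controls on its brighter probe. The groups did not overlap, and the control arrays were spread more widely than the Syy arrays. The normalized level was 13.71 ± 0.05 with Syy and 13.32 ± 0.18 in controls (SD, n = 3 each), a log2 fold change of 0.40 ± 0.10 (SE; adjusted p = 0.0363). The call was narrow. Leaving out any Syy array ended it (adjusted p = 0.0718, 0.105 and 0.0894 for replicates 1, 2 and 3), as did leaving out control replicate 1 (0.117) or 3 (0.101), whereas leaving out control replicate 2 kept it (0.0201). Median centring also ended it (log2 fold change 0.27, adjusted p = 0.105), and it held in the deposited intensities (0.40, adjusted p = 0.0369). The dimmer LMNA probe gave a similar difference, 0.41, without passing (adjusted p = 0.29 over all probes). It read 1450, 2633 and 1495 with Syy, against 1249, 1217 and 1034 in controls. Syy replicate 2 thus stood far above the other Syy arrays on that probe, and only slightly above them on the brighter one.

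LMNB1 read 553, 174 and 466 with Syy, against 124, 133 and 58.9 in controls on its brighter probe. Syy replicate 2 lay just above the highest control, and the other Syy arrays far above. The normalized level was 8.40 ± 0.91 with Syy and 7.00 ± 0.41 in controls (SD, n = 3 each). The log2 fold change of 1.40 ± 0.48 (SE) was the largest of the 9 genes and did not pass (adjusted p = 0.0962). It became 1.92 without Syy replicate 2 and was then called (adjusted p = 0.0202). The call was also reached after median centring (1.56, adjusted p = 0.0387), with the mean of both probes (1.39, adjusted p = 0.0349) and when dim probes were removed (adjusted p = 0.0375).

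The dimmer LMNB1 probe showed the same difference with less spread. It read 235, 147 and 209.6 with Syy, against 49.9, 58.8 and 46.9 in controls, and the lowest Syy value exceeded the highest control value. Its log2 fold change was 1.38 ± 0.21 (SE), which passed over all 31741 probes (adjusted p = 0.0124), where 8.99% of probes were called higher. On both probes Syy replicate 2 was the lowest of the Syy arrays.

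LMNB2 read 1646, 1559.9 and 1483 with Syy, against 1094, 1018 and 874 in controls on its brighter probe. The groups were well apart, at 10.52 ± 0.07 with Syy and 10.10 ± 0.08 in controls on the normalized log2 scale (SD, n = 3 each). The log2 fold change was 0.42 ± 0.06 (SE; adjusted p = 0.00929), and it was larger in the values as deposited, at 0.65. The call held when any 1 array was left out, with adjusted p from 0.0245 to 0.0381.

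The dimmer LMNB2 probe did not show this difference after normalization. It read 938, 846 and 896 with Syy, against 695, 826 and 764 in controls, without overlap in these deposited intensities. After quantile normalization the values overlapped and gave a log2 difference of -0.04 (95% interval -0.30 to 0.22, limma, adjusted p = 0.83 over all probes). In the deposited values the median shift of probes in its intensity range, 8 to 10 on the log2 scale, was 0.30. Taking the mean of both probes lowered the LMNB2 change to 0.19 and ended its call (adjusted p = 0.0892). The log2 level of the brighter probe minus that of the dimmer one was 0.82, 0.91 and 0.74 on the Syy arrays, against 0.61, 0.29 and 0.19 on the control arrays. This gap was wider with Syy by 0.46 (exact permutation test, two-sided p = 0.10, the smallest that 3 arrays against 3 allow; 0.30 adjusted over the 3 lamin genes). The same gap differed by -0.01 for LMNA and 0.02 for LMNB1 (exact permutation p = 1 and 0.90). Which transcripts each probe reads was not analysed here.

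**Figure D2:**
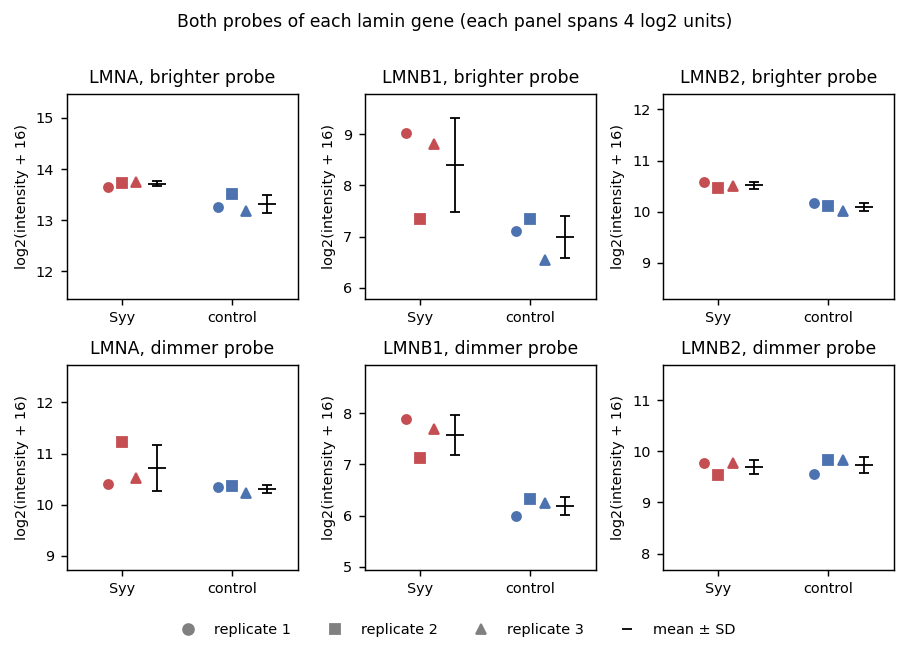
Normalized level, log2(intensity + 16), of the brighter (top) and dimmer (bottom) probe of LMNA, LMNB1 and LMNB2 on each array, with mean and SD; every panel spans the same range of log2 units. The LMNB1 probes differ between groups alike (1.40 and 1.38), while the LMNB2 probes do not (0.42 and -0.04).

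Among the keratins of simple epithelia, KRT8, the basic partner of KRT18, read 30.6, 29.5 and 11.5 with Syy, against 24.9, 26.4 and 26.7 in controls. In these deposited intensities Syy replicate 3 was the lowest array and the other Syy arrays the highest. After normalization control replicates 2 and 3 were the highest (5.48 and 5.63, against 5.45 and 5.39 for Syy replicates 1 and 2). The log2 difference of -0.25 did not pass (95% interval -0.73 to 0.22, adjusted p = 0.42) and was -0.05 without Syy replicate 3 (adjusted p = 0.80). The probe assigned to both KRT18 and KRT18P55 read 8764, 7577 and 7402 with Syy, against 9083, 8441 and 8585 in controls. Its normalized log2 difference of -0.18 did not pass (adjusted p = 0.13 over all probes), and it cannot be credited to KRT18. The RefSeq table lists 68 KRT18, 52 KRT8 and 5 KRT19 pseudogenes. Probe sequences were not used here, so cross-reading between these copies was not checked, and the keratin values are uncertain in that respect.

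KRT19, the acidic keratin of bile duct cells, read 29.6, 31.6 and 439 with Syy, against 42.3, 134.9 and 23.9 in controls. Syy replicate 3 was 3.26 times the next highest array, control replicate 2, and these arrays stood apart from the other 4. The log2 difference was 0.30 with an interval of -2.24 to 2.84 (adjusted p = 0.87). Its direction rested on single arrays. Leaving out Syy replicate 3 gave -0.79 (adjusted p = 0.42), and leaving out control replicate 3 gave -0.06 (adjusted p = 0.99). With both high arrays left out it was -0.24 (adjusted p = 0.31).

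Syy replicate 3 also differed from the other arrays in transcripts of the hepatocyte lineage. The summed intensity of 18 measured hepatocyte markers was 27472 there. It was 460 and 684 for Syy replicates 1 and 2, and 452 to 773 in controls. APOA2 (16843), H19 (4469) and APOA1 (3298) made up most of the sum of Syy replicate 3. Of the 18, 11 exceeded there both 2 times their highest value on the other arrays and 2 times that array's median probe, and none met both on any other array. FGG, a fibrinogen chain, met the first of these only, at 19.2 there, against at most 8.88 on the others. On Syy replicate 3, 15 of the 18 lay above the array's median, on Syy replicate 2, 9, and on each other array 6. SERPINA1, which was called (adjusted p = 0.0436), was higher on all Syy arrays. It read 50.3, 108 and 205, against 16.6 to 21.7 in controls. Albumin (ALB) read 1.97, 5.26 and 111 with Syy, against 1.84 to 3.04 in controls. The 8 measured markers of bile duct epithelium other than KRT19 summed to 1098 there, with 1140 and 1228 for Syy replicates 1 and 2 and 955 to 1194 in controls, a sum made up mostly of KRT7 (864 there). They differed among themselves. CDH1, the epithelial cadherin, was dim but highest there, at 13.5, with 1.97 and 1.05 for Syy replicates 1 and 2 and 0.00 to 2.03 in controls. SOX9, a transcription factor of bile duct cells, was higher on all Syy arrays (127, 153 and 159, against 54.3 to 72.6 in controls, adjusted p = 0.00298). EPCAM, an adhesion protein of biliary epithelium, read 1.92 there, its lowest value. The same array had the highest value of KRT23, an acidic keratin chosen after its values were seen. KRT23 read 6.91, 7.36 and 411 with Syy, against 9.76, 4.06 and 24.8 in controls, so Syy replicate 3 was 16.5 times the next highest array. The part of these transcripts in the KRT19, KRT8 and NES values was not tested beyond leaving the array out. With that array left out, VIM (adjusted p = 0.0132) and LMNB2 (0.0252) were still called, where 9.73% of all genes were called higher. With control replicate 2 left out as well, VIM alone of the 9 genes passed (adjusted p = 0.0467), and LMNA (0.0542) and LMNB2 (0.0915) did not; 3.08% of all genes were then called higher. The high KRT19 value of control replicate 2 came with a hepatocyte sum of 572, inside the range of the other controls.

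**Figure D3:**
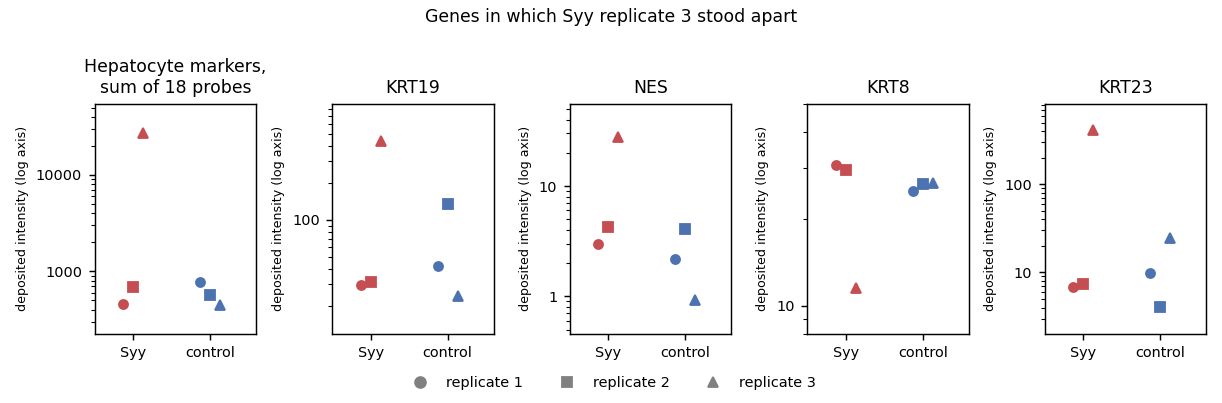
Deposited intensity, on log axes, of the summed hepatocyte markers and of KRT19, NES, KRT8 and KRT23 on each array. Syy replicate 3 is the highest array in each panel except KRT8, where it is the lowest at 11.5.

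The stellate cell marker list was also examined: 11 or 12 of its 15 measured genes lay above the median intensity on every array. Of all 18365 genes, 10913 had a probe above the median of all probes, so brightness alone does not establish identity. COL1A1, the main collagen chain of scar, read 4141, 5737 and 3505 with Syy, against 1940, 1987 and 1655 in controls. ACTA2, smooth muscle actin, read 6259, 5910 and 5573 with Syy, against 3521, 3951 and 4029 in controls. PDGFRB, a receptor for platelet-derived growth factor, read 940, 1056 and 775 with Syy, against 622, 621 and 449.6 in controls. The list did not move one way: 4 of the 15 rose (COL1A1, ACTA2, LOX and COL3A1), 1 fell and 10, PDGFRB among them (adjusted p = 0.0664), did not pass. The one that fell was SPARC, a matrix glycoprotein, with 4862, 4522 and 4018 with Syy, against 7281, 8165 and 7856 in controls (log2 fold change -0.86, adjusted p = 0.00267). TIMP1, an inhibitor of matrix metalloproteinases, and TAGLN, a smooth muscle actin-binding protein, were bright and did not pass (-0.18 and -0.01). DES and GFAP, which are used to mark these cells, and LRAT, the retinol esterifying enzyme of quiescent stellate cells (1.92 to 3.16 with Syy, against 0.92 to 2.03 in controls), lay below the median intensity of every array.

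**Figure D4:**
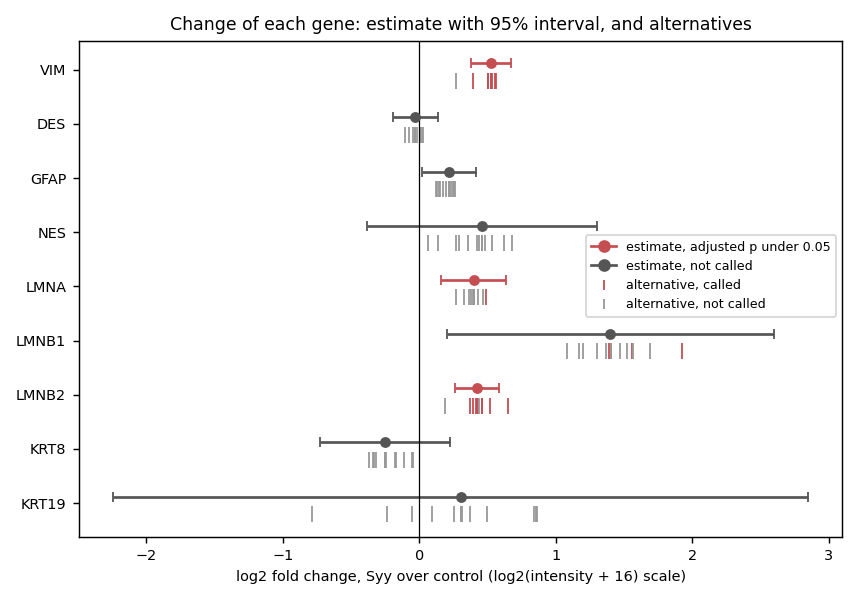
Log2 fold change, Syy over control, of each gene with its 95% interval (points), and the estimates under the alternative settings (ticks), red where the adjusted p was under 0.05. VIM and LMNB2 are red in nearly all settings, LMNA and LMNB1 in a minority, and the KRT19 ticks lie on both sides of 0.

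The lamina and cytolinker partners, a list of genes that process, anchor or bind these filaments, had 5 of 32 measured members higher and 0 lower, with 27 not passing (5 higher and 3 lower at an unadjusted p under 0.05, limma). Beside them, 11.0% of all 18365 genes were called higher and 11.5% lower (3153 and 3306 at the unadjusted threshold). Among genes with a probe above the median, the range that held 25 of the 32, each share was 16.9%. The count of higher partner genes was thus near the background, and that of lower ones below it. The median log2 fold change was 0.07. The 5 higher genes were ICMT, PLEC, SUN2, TOR1A and PPL, also the 5 with the smallest p in the list. ICMT, the methyltransferase that caps farnesylated proteins including B-type lamins, read 951, 1108 and 1111 with Syy, against 558, 603 and 548 in controls. All 3 Syy arrays were higher, with a log2 fold change of 0.61 ± 0.10 (SE; adjusted p = 0.00984) that stayed called when any 1 array was left out (adjusted p at most 0.0391).

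PLEC encodes plectin, which crosslinks intermediate filaments to actin and to adhesion sites. Its brighter probe read 187, 264 and 151 with Syy, against 87.8, 95.3 and 78.2 in controls, without overlap (log2 fold change 0.77, adjusted p = 0.0228). The other probe was dim in both groups and did not differ (-0.04, adjusted p = 0.76 over all probes). SUN2 encodes an inner nuclear membrane protein that ties the lamina to the cytoskeleton. Its probes gave changes of 0.37 (adjusted p = 0.0235) and 1.18 (adjusted p = 0.0098 over all probes). TOR1A, an ATPase of the nuclear envelope lumen, rose by 0.34 (adjusted p = 0.0264). PPL, which encodes the cytolinker periplakin, passed at the bottom of the array, with 6.91, 3.16 and 3.85 with Syy, against 1.08, 1.01 and 0.92 in controls (adjusted p = 0.0324). The PPL call also ended under other settings: after median centring (0.15, adjusted p = 0.38), in the deposited intensities (0.27, adjusted p = 0.0698) and with a pseudocount of 32 (0.14, adjusted p = 0.0511), and a floor of 16 left no difference. PLEC was not called with the floor (adjusted p = 0.0581) or with the mean of its probes (0.0522). All 4 calls were sensitive to single arrays. PLEC and PPL stayed called under 2 of the 6 single-array omissions and SUN2 and TOR1A under 1, with adjusted p of at most 0.0862, 0.0990, 0.0739 and 0.0858 in the others.

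Without Syy replicate 3, 3 partner genes were called higher and 4 lower, close to the shares over all genes under that setting, 9.73% higher and 10.7% lower. The lower ones, chosen after their values were seen, were FNTA, a farnesyltransferase subunit (-0.61, adjusted p = 0.0494), DST, a cytolinker (-0.58, adjusted p = 0.0347), LEMD3, an inner membrane protein (-0.50, adjusted p = 0.0431), and LBR, the lamin B receptor (-0.68, adjusted p = 0.0308). LBR read 406, 503 and 1444 with Syy, against 719, 568 and 497 in controls. Over all 6 arrays its log2 difference was -0.09 (adjusted p = 0.93), and the high value was again that of Syy replicate 3.

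Of 51 other intermediate filament genes measured, 1 was higher, 5 were lower and 45 did not pass, with a median log2 fold change of -0.004. Over all genes, 11.0% were called higher and 11.5% lower. Among genes with a probe above the median, the range that held 24 of the 51, each share was 16.9%. The count of lower genes was thus near the background or below it, and that of higher genes below it. KRT80, an epithelial keratin, read 271, 276 and 229 with Syy, against 139.9, 163 and 147 in controls (log2 fold change 0.45, adjusted p = 0.0483). The lower genes were KRT32 (-0.64), KRT75 (-0.46), KRT20 (-0.33), KRT33A (-0.31) and, chosen after its values were seen, KRT81 (-0.18). KRT32, KRT33A and KRT81 are hair keratins, KRT75 is expressed in the hair follicle, and KRT20 in intestinal and urothelial epithelium. Apart from KRT32, these falls depended on the scaling. In the deposited intensities KRT32 stayed called (-0.35, adjusted p = 0.0478), KRT20, KRT33A and KRT75 were not called (adjusted p = 0.60, 0.44 and 0.58), and KRT81 turned to 0.05 (adjusted p = 0.69). KRT80 stayed called both there (0.72, adjusted p = 0.00539) and after median centring (0.59, adjusted p = 0.00784). Leaving out single arrays ended the KRT80 and KRT81 calls each time (adjusted p up to 0.126 and 0.136), left KRT20 called under 2 omissions and KRT32, KRT33A and KRT75 under 1.

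**Figure D5:**
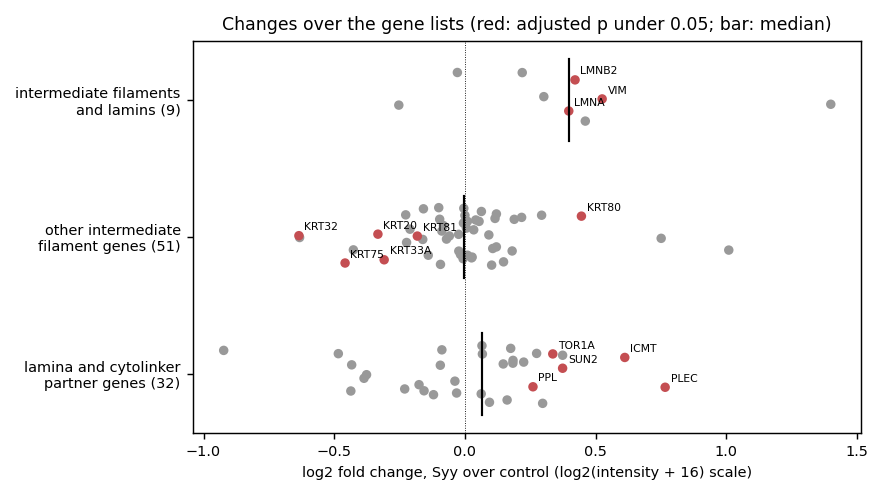
Log2 fold change, Syy over control, of the 9 measured genes and of the 2 lists of related genes; each point is a gene, red points and names mark an adjusted p under 0.05, and the bar is the list's median. The medians are 0.40, -0.004 and 0.07.

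The arrays correlated at 0.973 to 0.977 within the Syy group and 0.984 to 0.985 within the control group (Spearman, all probes). Between the groups the values were 0.968 to 0.977, and Syy replicate 1 correlated with control replicate 2 (0.9772) no less than with Syy replicates 2 and 3 (0.9766 and 0.974). Over all genes, 2017 passed as higher and 2104 as lower, so 48.9% of the calls were upward; median centring made this share 60.0%, and the deposited intensities 81.1%.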

How the data were processed

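The authors deposited 1 intensity per probe on a linear scale for 6 one-channel Phalanx arrays; per the labels' protocols, amplified RNA was labelled with Cy5. Each array's values were whole units (tolerance 0.05) times 1 factor, 0.92 to 1.08. The sources used here do not state the background method, the scanner or the target of that scaling, and no detection flags were used. Of 31741 probes, 24740 had 1 gene symbol in the platform annotation, 977 several and 6024 none. Because the Syy minus control shift of the deposited intensities varied with brightness (median 0.30 between 8 and 10 on the log2 scale and -0.05 above 12), values were taken as log2(value + 16) and quantile normalized; the pseudocount understates changes of dim genes. A gene was represented by its brightest probe. Groups came from the sample titles; limma 3.58.1 (R 4.3.3) gave two-sided tests, adjusted by Benjamini-Hochberg over all 18365 genes, at a threshold of 0.05; second probes were adjusted over all probes. The steps were tested on simulated data in which 18165 of 18365 genes were unchanged. In the real comparison 14244 were not called, so recovery may differ here. In the simulation 92% of changes of 1 log2 unit and 50% of changes of 0.5 were recovered in either direction. Not passing alone therefore does not show that a gene was unchanged. Members, lists and alternatives were chosen with earlier results of these data known. All 10 members are named, with the 5 genes of smallest p in each related list; others are said to be chosen later. Of 52 other intermediate filament genes and 34 partner genes listed, 51 and 32 had a single-symbol probe. Of the muscle markers 0 of 6 were called, of the bile duct markers 1 of 8 (higher), of the glial and neural markers 2 of 5 (1 higher, 1 lower), of the hepatocyte markers 1 of 18 (higher) and of the stellate cell markers 5 of 15 (4 higher, 1 lower). Beside these counts, 11.0% of all genes were called higher and 11.5% lower. Among genes with a probe above the median, each share was 16.9%. Same-numbered Syy and control arrays did not deviate together (correlations -0.134, -0.083 and -0.0416), so replicate numbers were not used as pairs.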

Additional observations from a re-analysis of the deposited data

How the results depend on the processing

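Under 15 alternative settings the 9 measured genes gave 130 values, of which 106 kept their direction and their side of the threshold, 13 lost a call, 4 gained one and 7 changed sign. The calls are those at an adjusted p under 0.05, limma, with counts given as higher and lower. In the deposited intensities, 3157 genes passed as higher and 737 as lower, the other intermediate filament genes gave 3 and 1, and DES turned to 0.025. Median centring left 1 of those other genes lower. A floor of 16 in place of the pseudocount left 1380 genes lower, 0 and 3 other intermediate filament genes and 3 partner genes higher; DES and GFAP lay at the floor and gave no value. A pseudocount of 32 left 0 other genes higher, an intensity trend 0 and 2, and the restriction to probes above the median 1 partner gene lower, with no value for DES, GFAP and NES. The same-numbered arrays share only a number; with the replicate block, 1051 genes passed as higher and 852 as lower, other intermediate filament genes 0 and 0, partner genes 1 higher, VIM and LMNB2 stayed called (adjusted p = 0.036 and 0.0418) and LMNA did not (0.0806). With both Syy replicate 3 and control replicate 2 left out, 566 genes passed as higher and 537 as lower, 1 member was higher (VIM, adjusted p = 0.0467), LMNB2 did not pass (0.0915), other intermediate filament genes gave 0 and 0, partner genes 0 higher, DES 0.0032 and KRT19 -0.24. Leaving out 1 array at a time gave 1197 to 1787 genes higher and 1088 to 1965 lower, 2 to 3 members higher, 0 to 2 other genes higher and 0 to 3 lower, 1 to 4 partner genes higher and 0 to 4 lower, DES at -0.077 to 0.018 and KRT19 at -0.79 to 0.86. The cause was not tested where a scaling moved a count. The scalings moved the median of all genes by -0.04 (median centring) and 0.08 (deposited intensities). Precision is limited by the number of arrays and, for DES, GFAP, NES and KRT8, by signals near or below the median of the array.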
